A study of Mus musculus with 12 samples.

Results

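Whole-cell RNA of mouse oligodendrocyte progenitor cells (OPCs) was compared between cells given a miR-27a mimic and cells given a control mimic. The comparison rests on 6 of the 12 libraries of the study, all those labelled as a mimic without pulldown, with 3 libraries per mimic. The other 6 libraries hold RNA captured through the biotin tag of the same mimics and are used here only where stated. Both groups were labelled as OPCs from brain of C57BL/6 mice at postnatal day 6 to 7 that proliferated in SATO medium with PDGFRA, as the label spells the additive, and both received a biotin-tagged mimic by transfection, so that neither the tag nor the transfection differs between them. A mimic is a synthetic duplex that acts as a mature microRNA at a level that is not set by the cell. The labels give neither the sequence of the control mimic nor the arm of miR-27a that the other mimic carries, and they do not say whether replicates came from separate cultures or pooled animals, so the p-values rest on a spread between libraries that may be no more than technical. Of 20540 genes in the deposited table, 13393 had at least 1 CPM (read counts scaled to each library's assigned reads, with the authors' normalisation) in at least 3 of the 6 libraries and were tested.

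A microRNA guides an Argonaute protein to messenger RNAs through its seed, a short stretch near its 5′ end that pairs with matching sites, most often in 3′ untranslated regions (UTRs), and bound messages are translated less and decay faster. miR-27a is encoded in a cluster with other microRNAs and has a close relative, miR-27b, and the family is known from lipid metabolism, muscle and cancer cells. OPCs divide in response to PDGF and either keep dividing or leave the cell cycle and form myelinating oligodendrocytes.

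The mature sequences are shown because the seed decides which messages can pair with the mimic. They are RefSeq's, on GRCm38.p6, with bases 2 to 8, the seed, in capitals.
miR-27a-3p: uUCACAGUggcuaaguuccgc
miR-27b-3p: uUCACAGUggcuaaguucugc
miR-27a-5p: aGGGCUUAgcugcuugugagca
miR-27a-3p lies at chr8:84208727-84208747 and miR-27a-5p at chr8:84208685-84208706, both on the plus strand, and miR-27b-3p at chr13:63300760-63300780 on the plus strand. The 2 3p arms share their seed and differ by 1 substitution, C19U, with positions counted from the 5′ end and miR-27a-3p given first. Among 1679 mature mouse microRNAs in the RefSeq table, they are the only 2 with this seed. The longest perfect seed match in a message, the 8mer ACTGTGAA, pairs with bases 2 to 8 and has an A opposite base 1. The 7mer-m8 ACTGTGA lacks that A, the 7mer-A1 CTGTGAA lacks the pair to base 8, and the 6mer CTGTGA lacks both.

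The sites below belong to genes with an 8mer that are among those with the largest falls under miR-27a, of genes of at least 5 CPM in the higher group whose replicate values did not overlap. They show the 8mer in capitals inside 30 bases of the annotated 3′ UTR (GENCODE M21, GRCm38), read along the message.
Acta2: tctagcacacaACTGTGAAcgttttgtgga
Slc7a11: gggacatctatACTGTGAAagtattttgtt
Rsad2: gtgtggattttACTGTGAAtcccacatttc
Plxnd1: cttatgcaccaACTGTGAAtagctgccgct
Grm5: tacaattttatACTGTGAAaaaaatacaga
Neto2: aatatgtaattACTGTGAAttcttagtaaa
Nek6: taataggattaACTGTGAAgactaacttat
Pde7b: taaacaatggcACTGTGAAcagaatactgt
Dram2: ttgcttattatACTGTGAAaatttgaatca
The windows are at chr19:34241620-34241649 (minus strand) for Acta2, chr3:50371886-50371915 (minus strand) for Slc7a11, chr12:26445116-26445145 (minus strand) for Rsad2, chr6:115955015-115955044 (minus strand) for Plxnd1 and chr7:88134284-88134313 (plus strand) for Grm5. They are at chr8:85637209-85637238 (minus strand) for Neto2, chr2:38586520-38586549 (plus strand) for Nek6, chr10:20399580-20399609 (minus strand) for Pde7b and chr3:106573747-106573776 (plus strand) for Dram2. Each of these genes has 1 such site in its longest annotated 3′ UTR. The site of Acta2 starts at base 29 after the stop codon and that of Dram2 at base 73, while those of Grm5 and Neto2 start at bases 3426 and 3309.

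The 6 libraries held 15548418 to 19106007 assigned reads, and 3 reads, the limit that a count of 0 allows, were worth 0.162 to 0.200 CPM, which covers counting error only. On the log2(CPM + 1) scale, libraries of the same mimic correlated at 0.996 to 0.997 across the genes tested and libraries of different mimics at 0.992 to 0.993, across genes that are not independent replicates. The first principal component of the 6 libraries held 54.9% of the variance and separated the mimics, and the second held 14.1%. No library stood apart from both groups on the first component. On the second, control replicate 1 was at 11.3 against -9.19 and -3.59 for the other control libraries. On the third, which held 11.3%, miR-27a replicate 2 was at -10.8 against 3.68 and 6.72 for the other miR-27a libraries.

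Under miR-27a, Ccnb1, cyclin B1, was at a mean of 164 CPM against 52.4 CPM, and 14 of 21 mitotic kinases and entry factors and 55 of 64 replication-dependent histone genes rose. Among the genes that fell were 272 of 840 with an 8mer, 15 of 27 published miR-27 targets, smooth-muscle contractile genes such as Acta2 and Myl9, the cystine transporter gene Slc7a11 and 13 of 28 interferon response genes. By limma on log2(CPM + 1) with Benjamini-Hochberg adjustment, which is the test behind every adjusted p here, 3335 genes differed, 24.9% of those tested, 1736 of them higher (13.0%) and 1599 lower (11.9%) under miR-27a. Most of these differences were small: 91.9% of the genes called differed by under 1.5-fold, and the median absolute log2 change among them was 0.27, at a median standard error of 0.07 over all genes. At least 1.5-fold were 160 rises (1.19% of the genes tested) and 111 falls (0.829%), and at least 2-fold were 4 rises and 16 falls; adding 1 CPM before the logarithm shrinks the fold of weakly expressed genes. The median log2 change over all genes tested was 0.01. In a fit of all 12 libraries, in which the pulldown libraries enter the estimate of the spread, 1427 of 13393 genes were called, 769 higher and 658 lower. Counts of list members that change by over 1.5 times in that fit, under another setting or without 1 library are given in parentheses below. Every list count below is to be read against the shares of all genes, 13.0% higher and 11.9% lower, and a count with all 12 libraries against the totals of that fit. In the plot of changes against expression, the called genes form a narrow band around 0 and the labelled genes lie outside it.

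**Figure D1:**
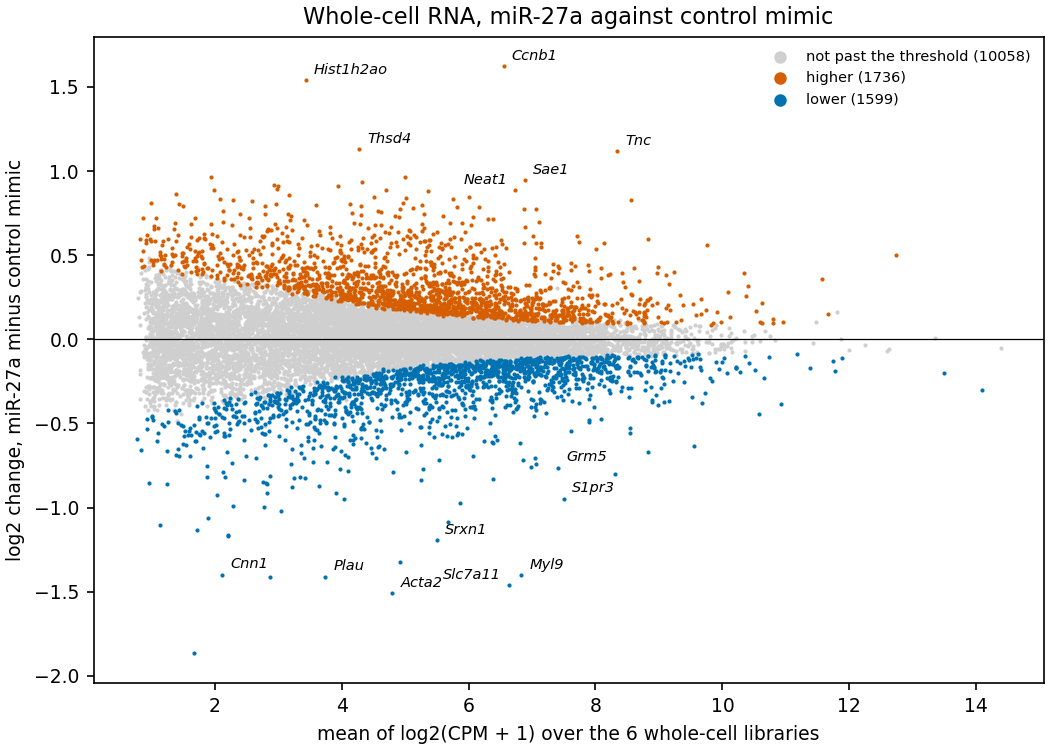
Each point is 1 of 13393 genes, with the mean of log2(CPM + 1) over the 6 whole-cell libraries on the x axis and the log2 change under miR-27a against control mimic on the y axis. Orange points are the 1736 higher and blue points the 1599 lower genes past the threshold, grey points did not pass, and 14 genes described in the text are labelled.

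Values of single libraries are given with the 3 control libraries first and the 3 miR-27a libraries second, and for every gene shown in this way the 2 groups did not overlap, which was true of 38.8% of all genes tested. Ccnb1, which activates the kinase of mitotic entry, was at 53.8, 50.6 and 52.9 CPM in the control libraries and at 158, 166 and 167 CPM in the miR-27a libraries (chr13:100778650-100786570, adjusted p = 1.48e-17). Its log2 change of 1.62 ± 0.04 (SE) was the largest rise of any gene named here. Thsd4, which encodes a microfibril-associated matrix protein, was at 12.05, 12.4 and 11.9 against 29.1, 27.6 and 26.7 CPM (1.13 ± 0.07, adjusted p = 9.85e-11, chr9:59966931-60522046). Sae1, a subunit of the enzyme that activates SUMO, was at 81.02, 85.8 and 85.96 against 163, 166 and 161 CPM (0.95 ± 0.04, chr7:16320234-16387806). Replicates of each mimic lay close together for these 3 genes, and non-overlap of the groups was part of the rule that chose them. Tnc, tenascin C, a matrix glycoprotein of OPCs and reactive glia, was at 209.7, 222 and 222 against 469.8, 479.6 and 472 CPM (1.12 ± 0.03, chr4:63959785-64047015).

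Called genes of at least 5 CPM in the higher group, with groups that did not overlap and no provisional symbol, were ranked by log2 change. Of the 15 largest rises among them, several others belong to DNA replication. Tk1, thymidine kinase, rose from 13.5 ± 0.66 to 26.6 ± 1.0 CPM (mean ± SD, n = 3 each). Dtl, a substrate receptor of the ubiquitin ligase that degrades licensing factors in S phase, rose from 4.84 ± 0.47 to 9.99 ± 0.63 CPM. Uhrf1, which guides maintenance DNA methylation, and Ccne2, cyclin E2, rose by 0.89 ± 0.07 and 0.96 ± 0.07 on the log2 scale. Hist1h2ao, Hist1h2ae, Hist1h3a and Hist1h2an, replication-dependent histones, had log2 changes of 1.54, 0.89, 0.88 and 0.86, and since histone genes are near copies of each other, reads shared among them make each single value uncertain. The remaining members were Neat1, the long non-coding RNA that builds nuclear paraspeckles, from 77.5 ± 3.2 to 144 ± 11 CPM, Fkbp9, a prolyl isomerase of the endoplasmic reticulum, from 47.2 ± 1.3 to 85.7 ± 4.4 CPM, and Mns1, a flagellar and ciliary protein, at 0.91 ± 0.10. None of the 15 had an 8mer of miR-27a-3p, Thsd4 and Fkbp9 had a 7mer-m8 and Mns1 a 7mer-A1, and Neat1 and Hist1h2an have no annotated 3′ UTR in the annotation used. Of all tested genes with a 3′ UTR, only 6.74% carried an 8mer, so that its absence from so few genes is near that share.

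Among the 15 largest falls by the same rule, 3 carried an 8mer, against 6.74% of all tested genes with a 3′ UTR. Another 4 encoded proteins of the actin contractile apparatus and had no 8mer. Slc7a11, which imports cystine for glutathione synthesis, was at 173, 157 and 164 CPM under control mimic and at 58.8, 62.4 and 56.5 CPM under miR-27a (-1.46 ± 0.05, adjusted p = 2.99e-16). Acta2, smooth-muscle actin, was at 40.2, 48.1 and 49.8 against 13.8, 16.4 and 16.3 CPM (-1.51 ± 0.08). Rsad2, the antiviral enzyme viperin, was at 6.06, 6.09 and 5.74 against 1.94, 2.31 and 2.08 CPM (-1.16 ± 0.12). These 3 genes hold the 8mers shown above, and non-overlap of the groups was again part of the rule that chose them. Plau, urokinase, which carries a 7mer-m8, fell from 20.7 ± 1.1 to 7.19 ± 0.66 CPM (-1.41 ± 0.09, chr14:20836660-20843385).

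The other falls had no 8mer. S1pr3, a receptor for sphingosine 1-phosphate, was at 252, 251 and 247 against 129.8, 128 and 131 CPM, with a 7mer-A1 (-0.95 ± 0.04, adjusted p = 4.89e-15, chr13:51408639-51422797). Srxn1, sulfiredoxin, which restores peroxiredoxins and has no seed match, was at 66.7, 66.3 and 69.4 against 28.6, 30.8 and 27.6 CPM (-1.19 ± 0.06, chr2:152105516-152111376). Pex5l, a protein related to the peroxisomal import receptor that also binds ion channels, fell from 21.8 ± 1.2 to 10.8 ± 0.86 CPM without a seed match. Gca, a calcium-binding protein of the penta-EF-hand family, and Tnfaip2, induced by tumour necrosis factor, had log2 changes of -1.02 ± 0.11 and -0.99 ± 0.13, Vipr2, a receptor for vasoactive intestinal peptide, fell from 8.77 ± 1.2 to 3.90 ± 0.60 CPM, and Fam69a, a kinase-like protein of the endoplasmic reticulum, one of -0.91 ± 0.08. Gca and Vipr2 carry a 7mer-A1, and Tnfaip2 and Fam69a a 7mer-m8.

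**Figure D2:**
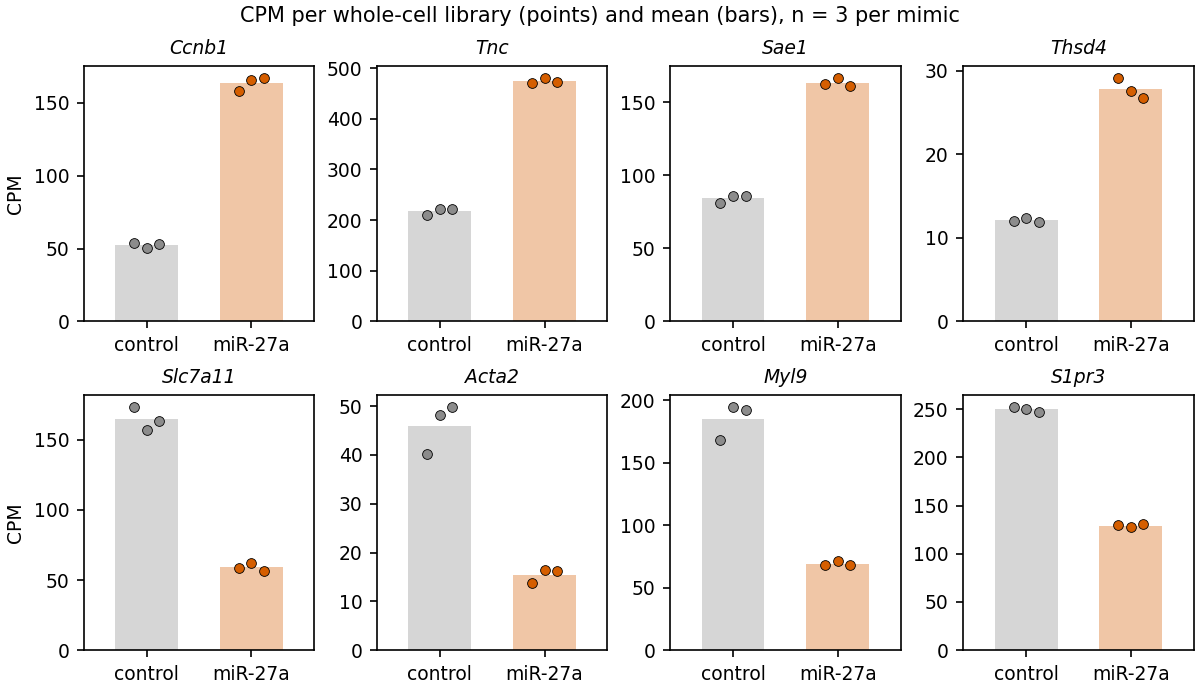
Each panel shows 1 gene, with CPM in each library on a linear y axis that starts at 0 and the 2 mimics on the x axis; points are libraries (n = 3 per mimic) and bars are means. In each of the 8 panels all 3 miR-27a libraries lie on the same side of all 3 control libraries, for Ccnb1 at 158 to 167 against 50.6 to 53.8 CPM and for Slc7a11 at 56.5 to 62.4 against 157 to 173 CPM. Such non-overlap was part of the rule that chose these 8 genes.

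Genes were then grouped by the best miR-27a-3p seed match in their longest annotated 3′ UTR, which 12459 of the tested genes have, searched on the message strand only. Of 840 genes with an 8mer, 272 fell (32.4%) and 67 rose (7.98%), against falls in 11.9% and rises in 13.0% of all genes tested, and their median log2 change was -0.10. Of 1463 genes with a 7mer-m8 at best, 18.3% fell and 11.1% rose (median -0.02). Of 1482 with a 7mer-A1, 14.2% fell and 12.4% rose. The order ran from the 8mer to no match: of 6222 genes without any match, 8.98% fell and 15.01% rose (median 0.02). The 48 genes with at least 2 8mers had a median of -0.19, with 21 falls and 2 rises. For the other arm of the hairpin, miR-27a-5p, 41 of 287 genes with an 8mer fell and 37 rose (median -0.01).

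Centred on each gene's mean over the 6 libraries, the median log2(CPM + 1) of the 8mer genes was 0.06, 0.04 and 0.05 in the control libraries and -0.05, -0.04 and -0.05 in the miR-27a libraries, and centring on that mean sets opposite signs in the 2 groups. Long 3′ UTRs hold more matches by length alone: the median 3′ UTR was 2592 bases in 8mer genes and 682 bases in genes without a match. Within short, middle and long 3′ UTRs of equal number, the 8mer genes had medians of -0.13 (n = 75), -0.13 (n = 222) and -0.08 (n = 543), and genes without a match 0.03, 0.02 and 0.01.

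**Figure D3:**
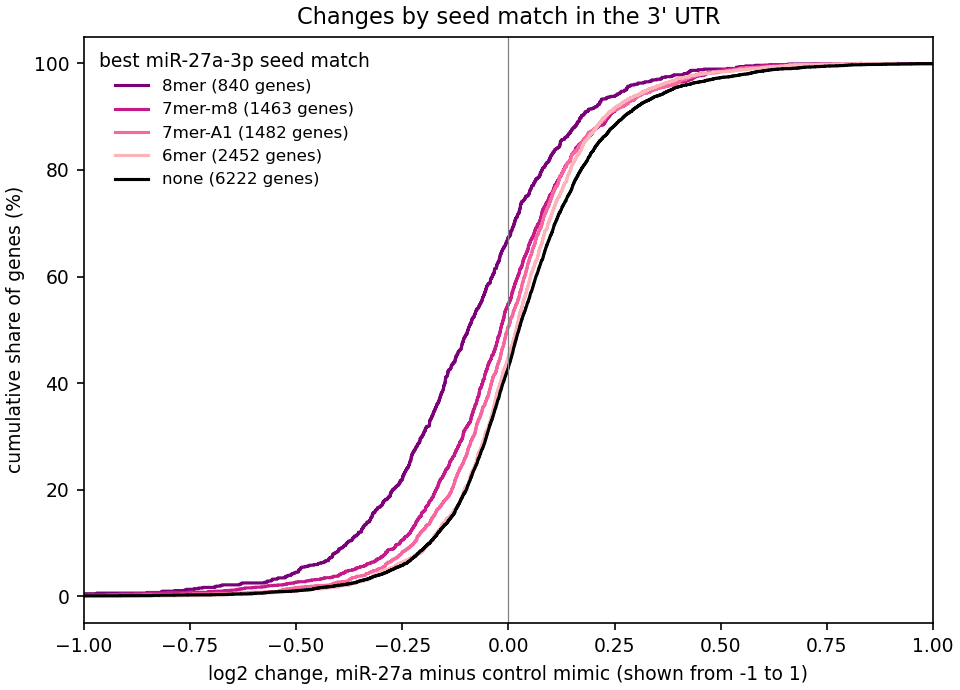
The x axis is the log2 change under miR-27a against control mimic and the y axis the cumulative share of genes, in percent, for genes grouped by their best miR-27a-3p seed match (lines, with the number of genes in the legend). The 8mer line lies to the left of the line for genes without a match, with medians of -0.10 and 0.02, and the 7mer lines lie between them.

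Among the 792 genes with exactly 1 8mer, the surroundings of the site were compared as a description. In the third with the most A or T in the 22 bases around the site (63.6 to 95.5%), the median log2 change was -0.12 and 37.1% of genes fell, and in the third with the least (18.2 to 50%) it was -0.05 and 27.3% fell. In the third with the site nearest to the stop codon (1 to 550 bases after it) the median was -0.12, and in the third farthest from it (1583 bases or more) it was -0.08. The share of 8mer genes past the threshold also followed expression: 15.9% fell in the third with the lowest CPM and 45.1% in the third with the highest, while the medians were -0.08 and -0.10. Of the 1538 falls among genes with a 3′ UTR, 17.7% carried an 8mer and 48.8% an 8mer or 7mer, against 6.74% and 30.4% of all such genes tested. No match of even 6 bases was found in 36.4% of the falls, against 49.9% of all such genes tested.

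The 8mer genes with the largest falls belong to several classes of membrane and signalling proteins. Grm5, a metabotropic glutamate receptor, was at 228, 218 and 215 CPM under control mimic and 128, 133 and 127 CPM under miR-27a (-0.76 ± 0.04, adjusted p = 9.18e-13). Neto2, an auxiliary subunit of kainate receptors, was at 174, 155 and 164 against 94.7, 101 and 94.5 CPM (-0.76 ± 0.04). Nek6, a kinase of mitotic spindle assembly, fell from 172 ± 6.7 to 103 ± 3.8 CPM, in contrast to the rising mitotic genes below, and Dram2, a lysosomal membrane protein of autophagy, fell from 84.6 ± 7.3 to 51.9 ± 1.1 CPM. Plxnd1, a semaphorin receptor, and Sema7a, a membrane-anchored semaphorin with 2 8mers, fell by 0.82 ± 0.11 and 0.63 ± 0.11 on the log2 scale. Pde7b, a cAMP phosphodiesterase, Plscr1, a phospholipid scramblase, Cmtm3, a membrane protein of the CKLF-like family, Gbp6, an interferon-induced GTPase, and Ccdc28b, a modifier of ciliary disease, had log2 changes from -0.73 to -0.63. Groups that do not overlap were part of the rule that chose these genes.

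An 8mer did not always go with a fall. Of the 67 rises among 8mer genes, Kcnk5, a tandem-pore potassium channel, had the largest, from 2.68 ± 0.23 to 5.53 ± 0.091 CPM (0.83 ± 0.12). Tppp, a tubulin polymerisation factor of oligodendrocytes, was at 215, 206 and 216 against 312, 308 and 305 CPM (0.54 ± 0.03), and Sybu, syntabulin, a linker of cargo to kinesin, at 68.7, 67.9 and 66.3 against 104, 100.3 and 93.7 CPM (0.54 ± 0.05). These 3 were named after their values were seen. Spc24, a kinetochore protein, carries an 8mer and rose (0.52 ± 0.08).

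Of 27 genes described as miR-27 targets in studies of other cells, 15 fell and 1 (from 0 to 3 under other settings) rose, with a median of -0.25. An 8mer was found in 13 of the 27 in the annotation used. Apaf1, the scaffold of the apoptosome, was at 77.8, 77.7 and 79.3 CPM under control mimic and 57.2, 60.4 and 58.2 CPM under miR-27a (-0.41 ± 0.05). Gpam, which starts triglyceride synthesis, was at 404, 424 and 410.0 against 339, 318 and 319 CPM (-0.34 ± 0.03). Abca1, the exporter of cholesterol, and Cyp1b1, a cytochrome that metabolises steroids, had non-overlapping values of 452 and 306 CPM and of 49.7 and 28.7 CPM (means of 3). Foxo1, a transcription factor that restrains the cell cycle, did not pass (-0.35 ± 0.17, adjusted p = 0.145), but without control replicate 2 it passed at 0.0203, and Rxra, a nuclear receptor, did not pass (0.10 ± 0.09, adjusted p = 0.47). The single rise, Zbtb10, a transcriptional repressor (adjusted p = 0.0204), was not called with all 12 libraries (adjusted p = 0.134), without the filter on low values (0.059), or without control replicate 2 (0.103), control replicate 3 (0.0513), miR-27a replicate 1 (0.114) or miR-27a replicate 2 (0.0625).

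Lists of cell division genes, drawn up with such rises already known, held rises more often than the 13.0% of all genes. Of 28 genes of the spindle and of cytokinesis, 26 rose and 0 fell, with a median of 0.55. Ckap2, a spindle microtubule protein, was at 87.3, 89.9 and 90.4 CPM under control mimic and 153, 153 and 153 CPM under miR-27a (0.77 ± 0.04, adjusted p = 1.19e-12). Kif11, the kinesin that separates the poles, and Kif20a, a kinesin of the central spindle, had log2 changes of 0.69 ± 0.04 and 0.78 ± 0.05, and Aspm, which organises spindle poles, 0.67 ± 0.04. Of the 28, only Cit, citron kinase, and Ckap5, a microtubule polymerase, did not pass (0.20 ± 0.10 and 0.06 ± 0.03).

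Of 21 mitotic kinases and entry factors, 14 rose and 0 fell (median 0.44). Nek2, a centrosome kinase, was at 25.6, 26.3 and 24.7 against 39.9, 41.3 and 40.9 CPM (0.65 ± 0.06), and Bub1b, a kinase of the spindle checkpoint, at 52.02, 54.5 and 51.2 against 76.3, 78.2 and 77.4 CPM (0.55 ± 0.05). Cdk1, the kinase that cyclin B1 activates, rose from 70.6 ± 2.6 to 100.4 ± 3.9 CPM (0.50 ± 0.05), less than Ccnb1. Wee1 and Cdc25b, which inhibit and activate Cdk1, did not pass (0.28 ± 0.11 and 0.18 ± 0.11, adjusted p = 0.0677 and 0.253). Of 20 cyclins, 8 (5 with all 12 libraries) rose and 1 fell, with a median of 0.07. Ccnb2, the other B-type cyclin of these cells, was at 0.69 ± 0.06 and Ccna2, cyclin A2, at 0.55 ± 0.04. Ccng1, cyclin G1, a p53 target that restrains division and carries an 8mer, fell from 649 ± 15 to 503 ± 15 CPM.

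Among 20 subunits and partners of the anaphase-promoting complex, which ends mitosis by degrading cyclin B, 6 rose and 1 (0 with all 12 libraries) fell. The list had a median of 0.02. The rises were 5 partners and the core subunit Anapc5 (0.18, not called with all 12 libraries at an adjusted p of 0.0801). Cdc20, its mitotic activator, was at 36.3, 45.1 and 37.5 against 71.6, 69.8 and 71.97 CPM (0.83 ± 0.06), Ube2c, its ubiquitin-conjugating enzyme, rose by 0.63 ± 0.07 and Mad2l1, its checkpoint inhibitor, by 0.42 ± 0.06. Fzr1, the activator of late mitosis and G1, was at 0.09 ± 0.06 (adjusted p = 0.333). Of 27 centromere and kinetochore genes, 17 rose and 1 fell (median 0.39), with Cenpa, the centromeric histone, at 15.9, 17.5 and 14.5 against 28.3, 29.00 and 30.9 CPM (0.84 ± 0.08). Zwint, a kinetochore protein also abundant in neural cells, fell against its group from 152 ± 3.7 to 123 ± 2.1 CPM and carries a 7mer-m8. Of 21 condensin and cohesin genes, 12 rose and 1 (0 with all 12 libraries) fell (median 0.24). Among the rises 8 were condensin subunits, with Ncaph at 0.56 ± 0.05, Ncapg at 0.48 ± 0.05 and Esco2, a cohesin acetyltransferase of S phase, at 0.56 ± 0.07, while the cohesin ring genes Smc1a and Smc3 were at 0.03 ± 0.03 and 0.03 ± 0.03 and did not pass.

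Among genes of S phase, the histones had the highest median. Of 64 replication-dependent histone genes, 55 rose and 0 fell (median 0.56). Hist1h1a, a linker histone, was at 88.99, 99.4 and 97.2 against 144, 142 and 139.7 CPM (0.57 ± 0.04), and Hist1h2bn at 34.9, 41.2 and 34.1 against 62.8, 57.9 and 64.3 CPM (0.74 ± 0.06). Ribosomal RNA was depleted to make the libraries, per the design text, which keeps messages without a poly(A) tail such as these histones'. Of 47 licensing and fork genes, 18 (9 with all 12 libraries, 11 without miR-27a replicate 1) rose and 1 fell (median 0.16), with Mcm3, a helicase subunit, at 0.37 ± 0.05 and Pcna, the sliding clamp, at 0.25 ± 0.03, while Mcm4, a subunit of the same helicase, was at -0.03 ± 0.04 and did not pass. Of 26 genes of nucleotide synthesis, 14 (5 with all 12 libraries, 9 without miR-27a replicate 3) rose and 0 fell (median 0.16), led by Tk1 and by Rrm2, the regulated subunit of ribonucleotide reductase (0.45 ± 0.05). Of 31 genes of homologous recombination and Fanconi repair, 13 (8 with all 12 libraries, 8 with no filter on low values, 8 without control replicate 3 or miR-27a replicate 2) rose and 0 fell (median 0.28), with Brca1 at 37.9, 43.8 and 43.4 against 65.7, 61.1 and 63.98 CPM (0.60 ± 0.06) and Fancd2 at 0.55 ± 0.07.

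**Figure D4:**
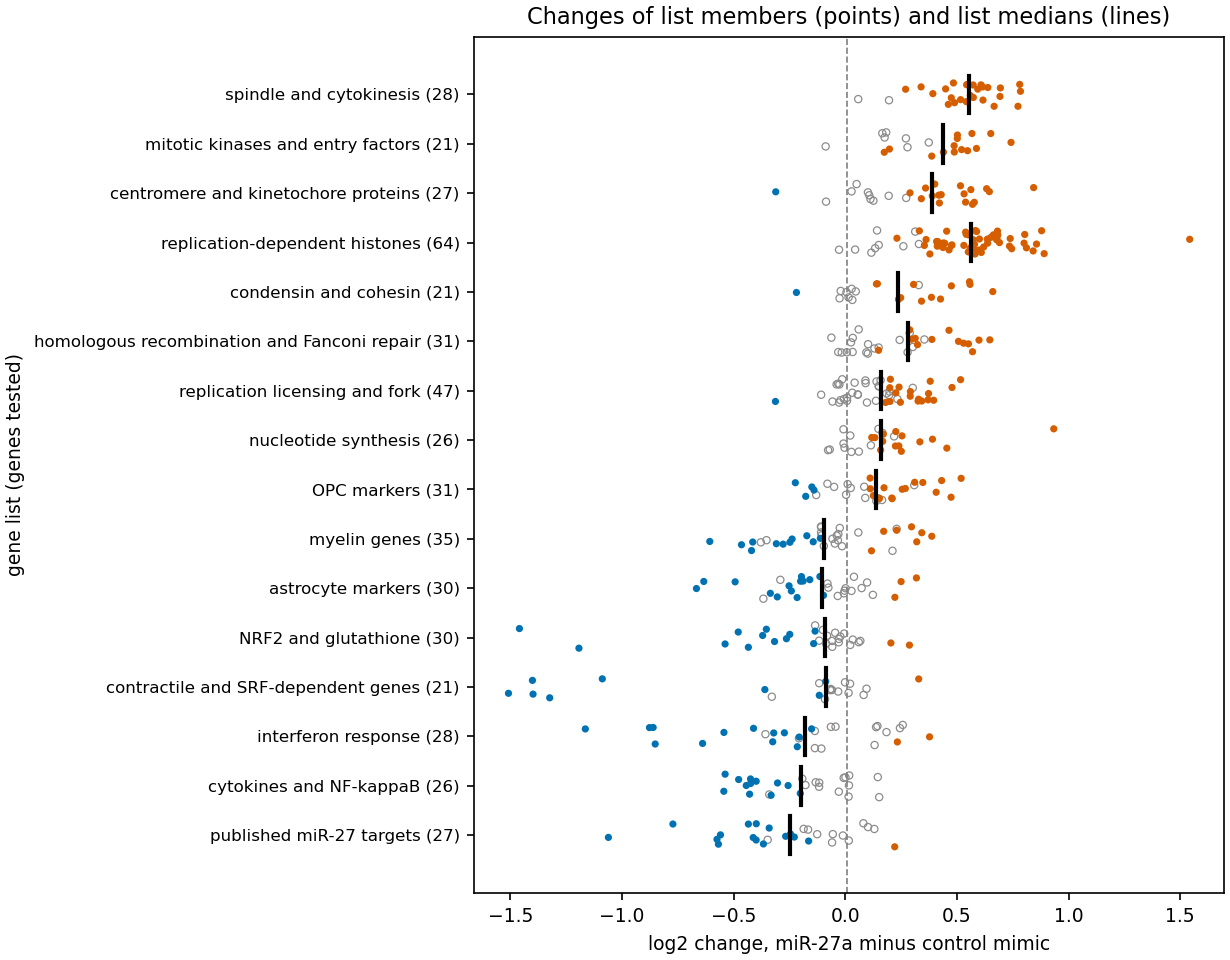
Each row is 1 gene list with the number of its genes tested, each point a gene, the x axis its log2 change under miR-27a against control mimic, filled points genes past the threshold, and the short vertical line the median of the list; the dashed line is the median of all genes tested, 0.01. The lists of spindle, mitotic kinase, kinetochore and histone genes lie to the right with medians from 0.39 to 0.56. Condensin and cohesin genes have a median of 0.24, and published miR-27 targets lie to the left with a median of -0.25. Cyclins (median 0.07) and the anaphase-promoting complex (median 0.02) are not drawn.

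Inhibitors of cyclin-dependent kinases and p53 targets went both ways, with 10 (4 with all 12 libraries, 6 without miR-27a replicate 2) rises and 6 falls among 24. Cdkn1c, the inhibitor p57, was at 97.9, 107 and 100.4 CPM under control mimic and 178, 172 and 174 CPM under miR-27a (0.78 ± 0.04, adjusted p = 2.41e-12), and so rose alongside the mitotic genes. Trp53inp1, a stress-induced p53 cofactor, rose from 436 ± 10 to 587 ± 14 CPM and Eda2r, a p53-induced death receptor, from 76.6 ± 3.0 to 104 ± 5.4 CPM. Cdkn2b, the inhibitor p15, fell from 5.22 ± 0.45 to 2.73 ± 0.18 CPM, and Plk2, a p53-induced kinase with an 8mer, from 73.5 ± 2.3 to 55.5 ± 0.97 CPM. Cdkn1a, the inhibitor p21, did not pass (-0.15 ± 0.11, adjusted p = 0.338).

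Smooth-muscle contractile genes held several of the largest falls. They were counted in a wider list, of contractile genes and genes that depend on the transcription factor SRF, which was drawn up with those falls known. Of the 21 genes of this wider list that were tested, 8 fell and 1 (2 scaled to library totals, 2 with voom) rose (median -0.09). Myl9, a myosin light chain, was at 168, 194 and 192 CPM under control mimic and 68.3, 71.03 and 68.3 CPM under miR-27a (-1.40 ± 0.05, chr2:156775420-156781658), Tagln, transgelin, at 46.5, 45.9 and 48.9 against 17.3, 18.2 and 19.2 CPM (-1.32 ± 0.06), and Cnn2, calponin 2, at 70.7, 75.4 and 74.7 against 31.5, 34.3 and 36.7 CPM (-1.09 ± 0.06). Cnn1, calponin 1, fell from 6.07 ± 0.28 to 1.71 ± 0.51 CPM. Vcl, vinculin, fell less (-0.36 ± 0.04), Tagln2 rose from 38.2 ± 1.2 to 48.2 ± 1.1 CPM, and the regulator Mkl1 was at -0.07 ± 0.15 and did not pass. Only Acta2 of these genes carries an 8mer. Some other genes of mural and smooth-muscle cells did not reach the filter: Des, desmin, was at 0 to 0.0667 CPM, Kcnj8 at 0 to 0.178 CPM, Myh11 at 0.473 to 0.947 CPM and Actg2 at 0 reads. Of 20 endothelial, mural and fibroblast markers, Acta2 not among them, 9 reached it, of which 3 rose and 1 (from 0 to 1 under other settings) fell. The summed level of the 20 was 122 to 133 CPM in the control and 143 to 152 CPM in the miR-27a libraries. The part of mural cells in the contractile falls was not tested.

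NRF2-dependent and glutathione genes, also listed with their leading falls known, held 12 falls and 2 (1 with all 12 libraries) rises among 30 (median -0.09). Nfe2l2, which encodes NRF2, was at 57.9, 57.6 and 58.4 CPM under control mimic and 42.2, 44.1 and 41.8 CPM under miR-27a (-0.43 ± 0.05), and carries a 7mer-m8. Gstm1, a glutathione transferase, was at 297, 263 and 287 against 196, 210.1 and 199.9 CPM (-0.48 ± 0.04), Hmox1, heme oxygenase, at 33.5, 38.2 and 35.8 against 23.7, 23.7 and 25.7 CPM (-0.54 ± 0.07), and Mgst1, a microsomal transferase, at -0.37 ± 0.05. Other textbook targets of NRF2 did not pass, with Nqo1, a quinone reductase, at -0.14 ± 0.05 (adjusted p = 0.0561), Gclc, which makes the glutathione precursor, at -0.10 ± 0.04 (adjusted p = 0.0556) and Txnrd1, thioredoxin reductase, at -0.09 ± 0.04. Nqo1 and Gclc were close to the threshold and passed without miR-27a replicate 2, at adjusted p = 0.0321 and 0.0423. The falls of Slc7a11 and Srxn1 were the 2 largest in the list.

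Among 28 interferon response genes 13 (6 with all 12 libraries, 8 without miR-27a replicate 1) fell and 2 (from 0 to 2 under other settings) rose (median -0.18). Usp18, which limits interferon signalling, was at 8.67, 8.28 and 8.61 CPM under control mimic and 3.39, 4.62 and 4.84 CPM under miR-27a (-0.86 ± 0.12), and Ifit1, an RNA-binding antiviral protein, at 7.59, 9.05 and 8.74 against 3.23, 5.15 and 4.50 CPM (-0.85 ± 0.13). Members of the same response that did not pass included Bst2, tetherin (0.26 ± 0.16, adjusted p = 0.26), Ifitm3 (0.13 ± 0.07) and Stat2 (-0.14 ± 0.06). Of 26 cytokine, receptor and NF-kappaB genes, 12 (7 with all 12 libraries) fell and 0 (1 without control replicate 1 or 2) rose (median -0.20). Serpina3n, a protease inhibitor of reactive glia, was at 1901, 1714 and 1749.8 against 1308, 1339.7 and 1294 CPM (-0.44 ± 0.04), Lifr, the receptor for leukaemia inhibitory factor, with an 8mer, fell from 53.9 ± 4.0 to 40.6 ± 3.4 CPM, and Il18, a cytokine, by 0.30 ± 0.05 on the log2 scale. Microglial markers, which could carry such genes, summed to 82.2 to 88.1 CPM in the control and 70.9 to 71.6 CPM in the miR-27a libraries. Of these markers, 2 (from 0 to 2 under other settings) of the 15 tested fell, against 11.9% of all genes. Their part in these results was not tested.

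The labelled cell type was checked against marker lists. Pdgfra, the PDGF receptor of OPCs, was at 551, 559.8 and 551 CPM in the control and 490.3, 507 and 510.4 CPM in the miR-27a libraries, and Olig2, a lineage transcription factor, at 138, 144 and 136 against 178, 167 and 174 CPM, so that these OPC markers were present in every library. Astrocyte and myelin genes were also present: Aqp4, the astrocytic water channel, was at 3735 and 3277 CPM and Gfap, an astrocytic filament, at 1332 and 1163 CPM (means of 3). Summed over each list, OPC markers held 5987 to 6079.8 CPM under control mimic and 6470.3 to 6566 CPM under miR-27a, myelin genes 16783 to 17191 and 15897 to 16330.0 CPM, committed oligodendrocyte genes 7624 to 7633 and 7271 to 7399 CPM and astrocyte markers 17759 to 17942 and 16265 to 16517 CPM. Neuronal markers summed to 552 to 575 and 583 to 625 CPM. Of the 20 tested, 2 (1 with all 12 libraries) rose and 2 (from 1 to 2 under other settings) fell, with a median of -0.003. The largest rise among them was that of Tubb3 (0.61), described below. The neuronal splicing factor Rbfox3 was at 0.127 to 0.533 CPM, and the endothelial genes Cldn5 and Cdh5 at 0 to 0.118 and 0.113 to 0.296 CPM. The astrocyte sum was thus above the OPC sum in all 6 libraries, so the cultures were not shown to be OPCs alone. In these bulk libraries, the cell type in which a gene changed cannot be told, nor can fewer cells of a type and less RNA per cell be told apart.

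**Figure D5:**
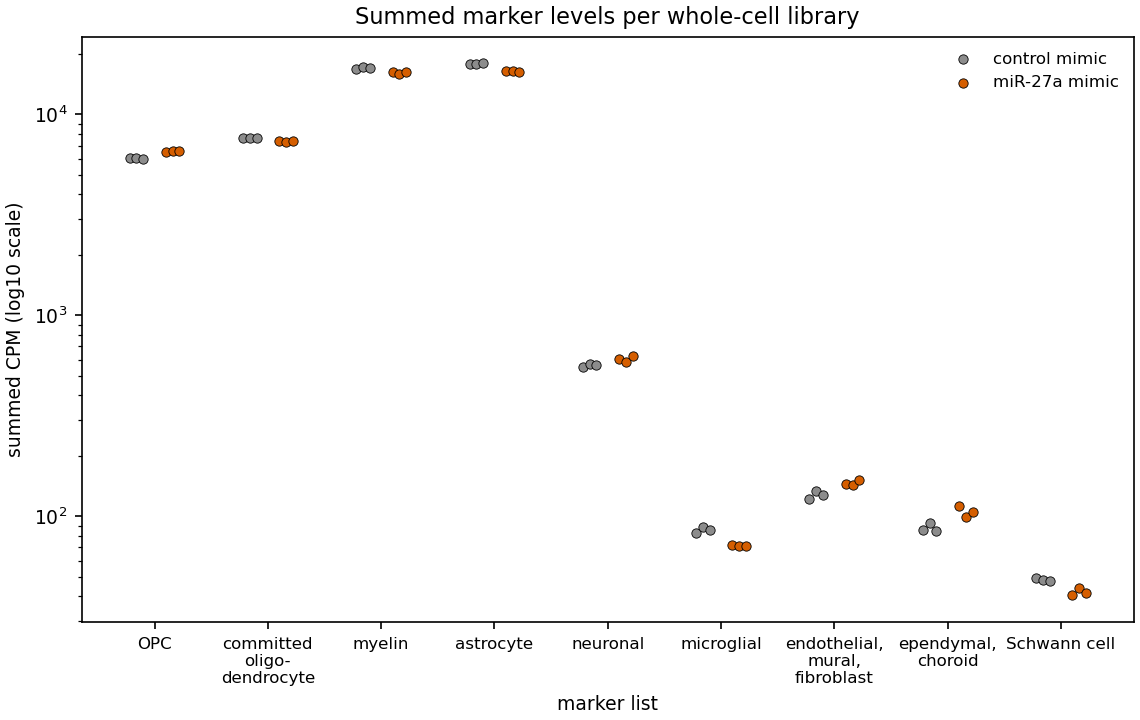
The y axis is the summed CPM of each marker list on a log10 scale and the x axis the list; points are whole-cell libraries under control mimic (grey) and miR-27a mimic (orange), n = 3 each. The groups overlap in none of the lists drawn. OPC, neuronal, ependymal and choroid, and endothelial, mural and fibroblast markers lie higher in all 3 miR-27a libraries. Committed oligodendrocyte, myelin, astrocyte, microglial and Schwann cell markers lie lower, for astrocyte markers at 16265 to 16517 against 17759 to 17942 CPM.

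OPC markers held 15 (7 with all 12 libraries, 9 without miR-27a replicate 3) rises and 4 (0 with all 12 libraries) falls among 31 (median 0.14). Neu4, a sialidase, was at 114, 113 and 113 CPM under control mimic and 154, 151 and 153 CPM under miR-27a (0.43 ± 0.04), Ednrb, an endothelin receptor, at 1234, 1211 and 1186 against 1417, 1471 and 1445 CPM (0.25 ± 0.03), and Rlbp1, a retinoid carrier, at 71.6, 78.05 and 74.01 against 91.5, 95.6 and 98.1 CPM (0.35 ± 0.05). Olig1 and Olig2 rose (0.41 ± 0.05 and 0.31 ± 0.04), Pdgfra, which carries a 7mer-m8, fell (-0.14 ± 0.03, adjusted p = 0.00186, and 0.107 with all 12 libraries) and Sox10 did not pass (-0.05 ± 0.05, adjusted p = 0.504). Of 37 transcriptional regulators of the lineage, 13 (6 with all 12 libraries) rose and 5 (3 with all 12 libraries) fell. Sox2, which keeps precursors undifferentiated, was at 584, 595 and 573 against 703, 689 and 713 CPM (0.26 ± 0.03), Nkx6-2 rose by 0.43 ± 0.07, and Chd7, a chromatin remodeller of oligodendrocyte formation, fell (-0.28 ± 0.04).

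Myelin genes moved in both directions, with 7 (3 with all 12 libraries) rises and 11 (7 with all 12 libraries) falls among 35 (median -0.10). Mog, a structural gene of the outer myelin surface, did not pass (-0.05 ± 0.08). Gltp, a glycolipid transfer protein with an 8mer, was at 125, 125 and 121 CPM under control mimic and 93.8, 90.6 and 93.2 CPM under miR-27a (-0.41 ± 0.04), Enpp2, autotaxin, at 1035, 974 and 984 against 832, 863 and 826 CPM (-0.25 ± 0.03), and its lipid's receptor Lpar1 at 61.96, 62.5 and 57.5 against 46.8, 39.95 and 48.95 CPM (-0.42 ± 0.06), all lower. Gsn, gelsolin, an actin-severing protein, rose from 127 ± 7.1 to 167 ± 7.6 CPM and Opalin, a membrane protein of maturing oligodendrocytes, from 69.4 ± 1.8 to 85.4 ± 1.2 CPM. Of 24 genes of committed precursors, 6 (3 with all 12 libraries) rose and 4 fell (median -0.01): Bcas1, a marker of newly forming oligodendrocytes with an 8mer, fell from 1749.7 ± 36 to 1495 ± 38 CPM, and Rras2, a small GTPase, and Lims2, an integrin-linked adaptor, rose by 0.40 ± 0.04 and 0.49 ± 0.08.

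Astrocyte markers held 14 (6 with all 12 libraries) falls and 3 (1 with all 12 libraries) rises among 30 (median -0.11), beside the lower summed level given above. The size of the changes differed among them. Ndrg2, a stress and growth regulator, was at 563, 587 and 571 CPM under control mimic and 359, 348 and 377 CPM under miR-27a (-0.67 ± 0.03) and Slc1a3, a glutamate transporter, at 753, 717 and 729 against 628, 611 and 607 CPM (-0.25 ± 0.03). Gfap and Aqp4 changed by -0.20 ± 0.03 and -0.19 ± 0.03 (adjusted p = 0.000157 and 7.03e-05, calls that were lost with all 12 libraries at 0.139 and 0.053). Glul, glutamine synthetase, was at 1187, 1226 and 1209.9 against 1502, 1522 and 1495 CPM and rose (0.32 ± 0.03), although it is an astrocyte marker that carries an 8mer. The part of the number of astrocytes in these values was not tested.

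Genes of the extracellular matrix and its receptors changed in different directions. Of 47 collagens, laminins and matrix glycoproteins, 14 rose and 6 fell (median 0.14). Col11a1, a fibrillar collagen, was at 1117, 1119 and 1139 CPM under control mimic and 1459, 1471 and 1505 CPM under miR-27a (0.39 ± 0.03) and Col12a1, a fibril-associated collagen, at 22.6, 22.7 and 21.6 against 39.9, 35.99 and 36.7 CPM (0.73 ± 0.06). The basement-membrane chains Col4a5 and Col4a6, neighbours on the X chromosome, fell from 153 ± 2.8 to 114 ± 1.4 CPM and from 65.6 ± 2.1 to 47.2 ± 2.6 CPM. Of 13 integrin genes, 5 fell and 2 (1 with all 12 libraries) rose. Itga7 and Itga6, both laminin-binding alpha chains, went apart: Itga7 was at 122, 121 and 119 against 88.1, 84.1 and 94.9 CPM (-0.43 ± 0.05) and Itga6 at 178, 178 and 177.1 against 219, 226 and 220.0 CPM (0.32 ± 0.03). Itgav and its partner Itgb8, which activate latent TGF-beta, both fell, by 0.29 ± 0.03 and 0.40 ± 0.05 on the log2 scale.

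Among 39 adhesion genes of glia, 8 (4 with all 12 libraries) rose and 7 (4 with all 12 libraries) fell. These were 20.5% and 17.9% of the list, against 13.0% and 11.9% of all genes. Cdh11, a cadherin with an 8mer, was at 456, 441 and 444 CPM under control mimic and 303, 322 and 306 CPM under miR-27a (-0.53 ± 0.03), and Cntn1, a contactin that serves as a Notch ligand, at 536, 519.6 and 521 against 695, 694 and 697 CPM (0.40 ± 0.03). Opcml, a membrane-anchored adhesion molecule, rose from 42.6 ± 1.9 to 62.8 ± 0.85 CPM. Of 30 semaphorins, plexins and neuropilins, 6 rose and 8 (5 with all 12 libraries) fell, and the falls with the smallest p, Sema6d (-0.28 ± 0.04), Plxnd1, Sema7a and Sema6a (-0.27 ± 0.06), all carry 8mers.

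Of 32 glutamate and GABA receptor genes, 7 (2 with all 12 libraries) fell, Grm5 above among them, and 1 (0 with all 12 libraries) rose, while the NMDA receptor gene Grin1 did not pass (0.09 ± 0.11). Of 37 genes of G protein subunits and RGS proteins, which speed up their inactivation, 12 (7 with all 12 libraries) fell and 8 (3 with all 12 libraries, 4 without miR-27a replicate 1, 5 without miR-27a replicate 2) rose. Gng12 was at 566, 547 and 551 CPM under control mimic and 439, 441 and 440.3 CPM under miR-27a (-0.33 ± 0.03), Rgs20 and Rgs4 fell by 0.60 ± 0.08 and 0.46 ± 0.06 on the log2 scale and Gng4 rose by 0.48 ± 0.06. Of 16 granin, neuropeptide and processing genes, 5 fell and 3 (0 with all 12 libraries, 1 with no filter on low values, 1 with the replicate block, 0 without miR-27a replicate 3, 1 without control replicate 2 or 3 or miR-27a replicate 1 or 2) rose. Scg2, secretogranin II, was at 113, 107 and 112 against 61.3, 66.9 and 57.6 CPM (-0.83 ± 0.05), Chgb, chromogranin B, at 37.1, 42.2 and 40.6 against 23.5, 26.9 and 23.97 CPM (-0.67 ± 0.07) and Scg3 at 70.4, 69.9 and 71.8 against 48.7, 55.3 and 50.2 CPM (-0.46 ± 0.05). These 3 granins, of the matrix of dense-core vesicles, fell without an 8mer or 7mer.

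Tubulin isotypes went apart as well, with 6 (3 with all 12 libraries, 3 without miR-27a replicate 3) rises and 2 (1 with all 12 libraries, 4 without control replicate 1) falls among 15. Tubb3, the class III beta-tubulin of neurons and of dividing cells, was at 93.3, 114 and 104 CPM under control mimic and 162, 146 and 169 CPM under miR-27a (0.61 ± 0.06), and Tuba4a, an alpha-tubulin, at 20.3, 22.3 and 22.1 against 12.8, 13.02 and 10.7 CPM (-0.78 ± 0.09). Of 33 lysosome and autophagy genes, 11 (4 with all 12 libraries, 7 without miR-27a replicate 1) fell and 3 (0 with all 12 libraries, 1 without control replicate 3 or miR-27a replicate 1 or 3) rose, with falls of Asah1, acid ceramidase, from 224 ± 5.8 to 173 ± 6.4 CPM, and Cd63, a tetraspanin of late endosomes, by 0.28 ± 0.05 on the log2 scale. In lipid metabolism, Acly, which supplies cytosolic acetyl-CoA, fell from 937 ± 35 to 721 ± 1.7 CPM, Fads1, a desaturase, by 0.23 ± 0.03 and Npc1, the lysosomal cholesterol transporter, by 0.24 ± 0.03 on the log2 scale. Fasn, fatty acid synthase, did not pass (0.07 ± 0.04).

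Among signalling pathways, the list of 27 Notch genes held 9 rises and 1 fall, with a median of 0.14. Of 25 genes of beta-catenin, its destruction complex and its targets, 10 (6 with all 12 libraries) rose and 1 (from 0 to 1 under other settings) fell, with a median of 0.15. The Notch rises included Cntn1, Dll3, an inhibitory ligand (0.47 ± 0.09), and Hey1, a target gene (0.25 ± 0.05), against a fall of Hey2, its close relative (-0.44 ± 0.09). In the second list, Csnk1a1, the kinase that primes beta-catenin for degradation, rose from 415 ± 9.1 to 488 ± 13 CPM, Ctnnbip1, an inhibitor of beta-catenin, by 0.25 ± 0.04 and Apc2, a scaffold of the destruction complex, by 0.34 ± 0.07. The target Axin2 did not pass (0.17 ± 0.11, adjusted p = 0.28).

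Housekeeping groups had medians from -0.05 to 0.01, against 0.01 for all genes. In the fit of 6 libraries, 24.4% of ribosomal protein and 19.7% of respiratory chain genes fell, against 11.9% of all genes. Cytosolic ribosomal protein genes held 19 (3 with all 12 libraries, 11 without control replicate 3, 31 without control replicate 1) falls and 2 (0 with all 12 libraries, 6 without control replicate 2) rises among 78, with a median of -0.05 and Rps15a at -0.28 ± 0.03. Respiratory chain genes held 8 (1 with all 12 libraries, 5 with no filter on low values, 4 without control replicate 3, 5 without miR-27a replicate 1 or 3) rises and 15 (3 with all 12 libraries, 9 scaled to library totals, 7 with no filter on low values, 9 with the replicate block, 7 without miR-27a replicate 3, 8 without miR-27a replicate 1) falls among 76 (median -0.02). Proteasome subunits held 1 (3 scaled to library totals) rise and 4 (0 with all 12 libraries, 2 without miR-27a replicate 1) falls among 37 (median 0.01). In the SUMO pathway, the rise of Sae1 was not shared by its partner in the same enzyme, Uba2 (0.07 ± 0.03, adjusted p = 0.132).

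The same contrast in RNA captured through the biotin tag, which uses other libraries, called 13.1% of the genes tested there, 6.05% higher and 7.06% lower. The leading changes were close in size there for some genes: Ccnb1 had 1.63 ± 0.10 against 1.62 ± 0.04 in whole-cell RNA, Slc7a11 -1.37 ± 0.09 against -1.46 ± 0.05, Sae1 1.01 ± 0.10 against 0.95 ± 0.04 and Srxn1 -1.05 ± 0.10 against -1.19 ± 0.06. For other genes named above the change in pulldown RNA was smaller and did not pass: Rsad2 had -0.24 ± 0.22 against -1.16 ± 0.12, Hist1h2ao 0.41 ± 0.21 against 1.54 ± 0.20 and Gca -0.34 ± 0.16 against -1.02 ± 0.11. The test of the difference itself passed for none of these 3 (adjusted p = 0.084 for Rsad2, 0.17 for Hist1h2ao and 0.080 for Gca). Genes with an 8mer had a median of -0.11 in pulldown RNA and -0.10 in whole-cell RNA over the 834 tested in both. A test of the difference between the 2 contrasts in a fit of all 12 libraries found 153 of 13393 genes past the threshold. Tnc was among them, at 1.53 ± 0.09 in pulldown RNA and 1.12 ± 0.03 in whole-cell RNA (adjusted p = 0.0331 for the difference).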

How the data were processed

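The authors deposited a table of log2 CPM per gene for 12 libraries. Per the series' design text, libraries were stranded total RNA with ribosomal RNA depleted, sequenced paired-end and trimmed with skewer, and the submitters' processing notes name HISAT2, SAMtools, featureCounts, Subread and edgeR, with GRCm38 and mm8 as builds, without their roles. Each value was turned back into reads and CPM, and 100% of values came out whole within 0.01 reads. Genes that reached 1 CPM in 3 or more of the 6 libraries were tested with limma 3.58.1 (trend) in R 4.3.3 on log2(CPM + 1), at an adjusted p of 0.05. Errors after log2 changes are SE, and those after CPM are SD (n = 3). No adjusted p is over a list alone. Counts were also simulated with a fixed spread that was not estimated from these libraries, and only genes of at least 5 CPM were changed. There, 50 of 50 genes raised by 1 on the log2 scale, 32 of 50 raised by 0.5 and 30 of 50 lowered by 0.5 were called. Because the spread was set, these shares do not give the sensitivity in the real libraries. Seed matches were counted in GENCODE M21 3′ UTRs, gene positions are GRCm38, and 19717 of 20540 symbols matched.

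The members and lists were chosen with earlier results of these data known. Named are the 15 largest rises and falls and the 15 largest falls with an 8mer, among called genes of at least 5 CPM in the higher group. Groups that did not overlap and a symbol that is not provisional were also required of these. Per list, up to 6 members with the smallest p are named, plus core members that did not pass. Of 76 lists computed, part is given here. Alternatives were the scaling, the filter, the pseudocount, the model, a replicate block and leaving out each library. Same-numbered libraries of the 2 mimics did not deviate together (correlations of 0.00, -0.04 and -0.03), so the numbers were not taken to pair them. Some genes that the rule selects are not reported here.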

Additional observations from a re-analysis of the deposited data

Results flagged for a closer look

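For 11 of the 188 named genes, the change under miR-27a differed between pulldown and whole-cell RNA by a test of the difference in a fit of all 12 libraries (limma, adjusted p under 0.05 over 13393 genes, of which 153 passed). The values below are pulldown minus whole-cell log2 differences. Scg2, a granin, fell further in pulldown RNA (-0.85, adjusted p = 0.000239), as did Lpar1 (-0.66, adjusted p = 0.0122), Gfap (-0.53, adjusted p = 0.0275) and Col4a6 (-0.46, adjusted p = 0.0467). Tnc and Cntn1 rose further in pulldown RNA (0.41, adjusted p = 0.0331, and 0.42, adjusted p = 0.0123). Nkx6-2 was higher in whole-cell RNA but at -0.53 ± 0.11 in pulldown RNA (difference -0.96, adjusted p = 0.00247), Gng4 was at -0.36 ± 0.11 there (-0.85, adjusted p = 0.00247) and Opalin at -0.14 ± 0.09 (-0.44, adjusted p = 0.0236). Plk2, which carries 2 8mers and fell in whole-cell RNA, was at 0.04 ± 0.08 in pulldown RNA (0.43, adjusted p = 0.013), and Pdgfra at 0.18 ± 0.09 (0.32, adjusted p = 0.0485).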

How the results depend on the processing

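In the fit of all 12 libraries 1427 genes were called, 769 higher and 658 lower, against 3335 (1736 and 1599) in 6 libraries; the alternative changes only the estimate of the spread. Without 1 library at a time, 2391 to 3286 genes were called. Counts of at least 1.5-fold depend on the log scale: 265 rises and 182 falls on the deposited log2 CPM, 268 and 184 by voom on the recovered reads and 252 and 170 at a pseudocount of 0.25 CPM, against 160 and 111, because a pseudocount of 1 CPM shrinks changes of low genes. With the replicate number as a block, although same-numbered libraries did not deviate together, 3104 genes were called (1612 higher and 1492 lower). Scaled by median-of-ratios, 1633 were higher and 1698 lower, and scaled to library totals 1927 and 1493, while the median change of all genes stayed between 0.00 and 0.02 under every setting. The median of 8mer genes, -0.10, was -0.085 with library totals, -0.10 by median-of-ratios and -0.067 with no filter on low values, and -0.11 to -0.086 without 1 library, so that it stayed below 0. Of the 164 named genes called, 159 were called under every setting in which they were tested. Anapc5, Aqp4, Gfap, Pdgfra and Zbtb10 were not, and the cause was not tested. Most named genes were chosen for large changes or small p, so this share does not hold for all called genes. Nqo1 and Gclc passed under median-of-ratios scaling (adjusted p = 0.0454 and 0.0419) and Gclc with a minimum of 5 CPM (0.049).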

Other observations

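S1pr1, which like S1pr3 binds sphingosine 1-phosphate, rose from 110.5 ± 0.73 to 155 ± 6.0 CPM under miR-27a, while S1pr3 fell. Among 30 metalloproteinases and their inhibitors, Timp1, an inhibitor, fell from 19.1 ± 1.0 to 11.7 ± 0.95 CPM and Mmp15, a membrane-bound protease, rose from 11.4 ± 0.71 to 16.01 ± 0.61 CPM. Of 21 receptor tyrosine kinases, Met, the receptor for hepatocyte growth factor with a 7mer-m8, had the largest fall (-0.85 ± 0.12). In the tenascin and proteoglycan list, Cd44, the hyaluronan receptor, fell from 27.1 ± 0.85 to 18.5 ± 2.8 CPM while Tnc rose. Marcks, an actin-binding substrate of protein kinase C, and Gap43, a growth cone protein, fell by 0.39 ± 0.04 and 0.33 ± 0.04 on the log2 scale, while Stmn1, stathmin, which destabilises microtubules, rose by 0.25 ± 0.03.

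In cholesterol metabolism, Insig1 and Stard4, targets of the sterol-sensing factor SREBP, rose by 0.38 ± 0.03 and 0.35 ± 0.05 and Srebf1, which encodes such a factor, by 0.32 ± 0.04, while Sc5d, a late enzyme of the pathway with an 8mer, fell by 0.27 ± 0.04. The list of 26 genes held 7 (4 with all 12 libraries, 4 without miR-27a replicate 3) rises and 4 (2 with all 12 libraries) falls. Of 24 sodium and calcium channel genes, 5 (3 with all 12 libraries) fell and 1 (from 0 to 1 under other settings) rose. Cacna2d3, a calcium channel subunit with an 8mer, fell from 49.7 ± 1.7 to 33.5 ± 2.9 CPM. Of 9 hedgehog genes, Cdon and Gas1, both coreceptors, rose by 0.53 ± 0.08 and 0.43 ± 0.07. Of 27 genes of microRNA processing and silencing, 3 (1 with all 12 libraries, 1 without control replicate 3 or miR-27a replicate 1) rose and 1 (from 0 to 2 under other settings) fell, both shares below the 13.0% and 11.9% of all genes, and Tnrc6b, a silencing scaffold that binds Argonaute, rose from 52.7 ± 0.51 to 65.1 ± 1.8 CPM.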
